A study of Mus musculus with 6 samples.

Results

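The human keratin genes were examined in parental 22Rv1 cells and in a BL-B01D1–resistant subline of the same cells. Members were all protein-coding genes of the deposited table whose symbol was KRT followed by a number and at most a letter from A to C, which gave 55 of 58735 genes. The 22Rv1 line was established from a human prostate carcinoma xenograft, and BL-B01D1 is a bispecific antibody-drug conjugate directed at EGFR and HER3. The 3 parental libraries came from cells cultured with vehicle, and the 3 resistant libraries came from the subline 22Rv1 BL-B01D1_R, derived by culture in stepwise rising concentrations of the conjugate. Both groups shared the 22Rv1 background, and RNA-Seq was run on poly-A RNA. The resistant libraries were all samples of 1 line from 1 selection, and nothing in the labels said that the libraries of a group came from separate cultures, so p-values measured only the spread between these libraries. The labels give the organism as mouse, but both the cell line and the gene identifiers are human.

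Keratins are the intermediate filament proteins of epithelial cells. Each filament is built from pairs of an acidic type I and a basic type II protein, so epithelial cells express members of both types together. In the prostate, luminal cells carry KRT8 (type II) with KRT18 and KRT19 (type I), and basal cells carry KRT5 (type II) with KRT14 and KRT15 (type I). Prostate adenocarcinomas usually keep the luminal set and lack the basal set. Most other keratins belong to stratified epithelia, to hair and nail, or to the inner root sheath of the hair follicle. The type II genes lie side by side on chromosome 12 and the type I genes on chromosome 17, apart from KRT18, which sits beside KRT8. Of the members, 28 were type I and 26 type II, with 27 genes on chromosome 12 and 28 on chromosome 17. KRT222, a keratin-like gene, was counted in neither type.

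Total counts on genes ranged from 13821639 to 17251491 in the parental libraries and from 14820809 to 16725283 in the resistant libraries. At these depths 3 counts corresponded to between 0.174 and 0.216 CPM (counts per 1e+06 of the TMM-adjusted library size). This floor is the approximate upper 95% limit for an observed count of 0 and covers counting error only. Keratin genes took 0.0703% to 0.0714% of all counts in parental libraries and 0.0772% to 0.0791% in resistant libraries.

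The keratin transcripts of both lines were almost entirely those of simple epithelium. Only 16 of the 55 genes had a count in any library, and 39 had none. The filter on low counts kept 6 genes for the test, namely KRT8, KRT18, KRT19, KRT10, KRT7 and KRT80. The 10 other genes with counts were too weak to be tested, and 8 of them had at most 2 counts in every library. A gene was called where the FDR was under 0.05 and the log2 fold change was above 1 or under -1. By edgeR's quasi-likelihood test, 2 keratins were called higher in resistant cells, KRT19 and KRT80, and 0 were called lower (1, KRT18, was lower at an unadjusted p under 0.05). limma-voom and DESeq2 likewise called 2 keratins. Over all genes tested, 5.37% were called, 2.53% as higher and 2.84% as lower. Without regard to the size of the change, 3 keratins were higher and 1 was lower at an FDR under 0.05, against 17.1% and 18.4% of all genes tested.

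KRT19, a type I keratin of luminal and ductal epithelium and the smallest of the family, had the widest change of the tested keratins. The gene (ENSG00000171345) spans bases 41523617 to 41528308 of chromosome 17 (hg38, reverse strand). It measured 9.11, 8.81 and 9.15 CPM in parental libraries 1, 2 and 3 and 83.1, 82.5 and 74.8 CPM in resistant libraries 1, 2 and 3. All resistant libraries lay far above all parental libraries, and the spread within each group was small against the gap. Of all genes tested, 22.1% lay wholly above in resistant libraries. The KRT19 levels rested on 157, 148 and 127 counts in parental libraries and 1377, 1213 and 1214 counts in resistant libraries. KRT19 had a log2 fold change of 3.15 (SE 0.073), an increase of 8.88-fold, and its Benjamini-Hochberg FDR over all genes was 2.81e-32 in edgeR's quasi-likelihood test. In bulk RNA, more cells with a transcript and more of the transcript per cell cannot be told apart. By log2 fold change, KRT19 stood at place 34 of the 17142 genes tested. In the order of mean FPKM (CPM per kilobase of gene length) over 19951 protein-coding genes, it moved from place 8289 in parental cells to place 1269 in resistant cells.

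**Figure D1:**
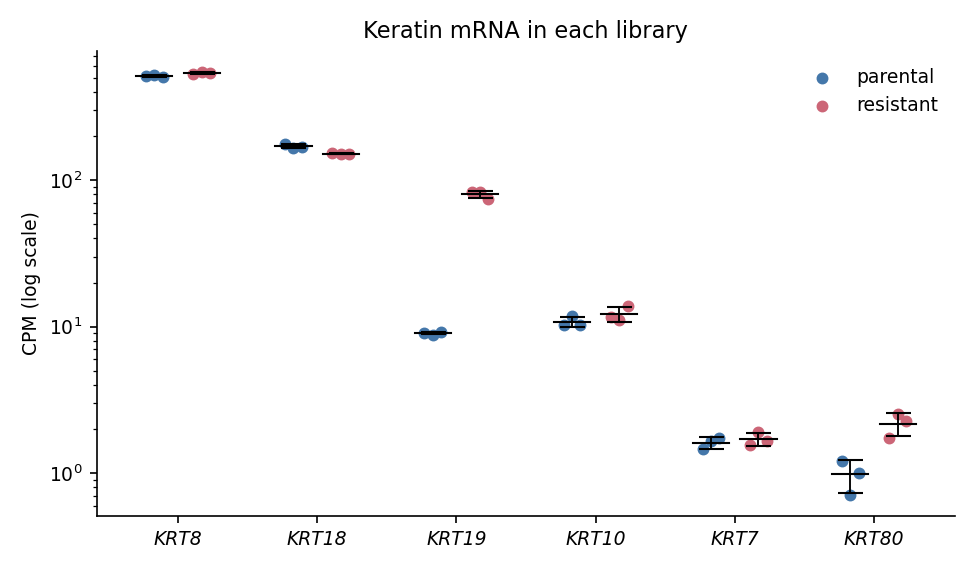
CPM on a log axis of the 6 tested keratins, with 1 point per library, parental libraries in blue and resistant libraries in red; bars give the mean and error bars the SD of 3 libraries. KRT19 rose from about 9 to about 80 CPM, whereas KRT8, KRT18, KRT10 and KRT7 lay close together in both lines and KRT80 rose at a low level.

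KRT8, the type II partner of KRT18 in simple epithelium, was the most abundant keratin in both lines. It measured 513, 519 and 509 CPM in parental libraries 1, 2 and 3 and 528, 547 and 539 CPM in resistant libraries 1, 2 and 3. The groups did not overlap, but the gap between them was narrow, and across all genes tested 22.1% lay wholly above in resistant libraries. KRT8 had a log2 fold change of 0.07 (SE 0.026, FDR 0.0423 by edgeR's test). This FDR rose to 0.126 with library size alone in place of TMM, to 0.0719 without the filter on low counts, and to between 0.0572 and 0.172 when parental library 1, 2 or 3 or resistant library 2 or 3 was left out.

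KRT18, the type I partner of KRT8, was the only tested keratin that fell. It measured 177, 167 and 169 CPM in parental libraries and 152, 151 and 151 CPM in resistant libraries. Every resistant library lay under every parental library, as did 22.8% of all genes tested. The log2 fold change of KRT18 was -0.18 (SE 0.035, FDR 9.14e-05 by edgeR's test), a level 0.886 times that of parental cells, and it stayed under the fold change required for a call. KRT8 (reverse strand, chromosome 12 from 52897187 to 52949954) and KRT18 (forward strand, 52948871 to 52952901) overlap by 1084 bases, and the sources used here do not state whether counting used strand, so reads from the overlap cannot be assigned with certainty. The KRT8 to KRT18 ratio of FPKM was 1.41 ± 0.049 (SD, n = 3) in parental cells and 1.66 ± 0.038 (SD, n = 3) in resistant cells (p = 0.1 in a two-sided exact permutation test, which cannot go lower with 3 libraries against 3).

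KRT8 and KRT18 have many pseudogene copies with near-identical sequence, so some reads may match several copies. The study's methods do not state how such reads were counted. The table lists 50 KRT8 pseudogenes and 67 KRT18 pseudogenes. Together they held counts equal to 2.36% to 2.82% of those of KRT8 and 1.74% to 2.57% of those of KRT18 per library. These percentages cover only reads assigned to the pseudogenes, and not any reads left unassigned. Of the KRT8 and KRT18 pseudogenes, 5 and 1 could be tested. By edgeR's quasi-likelihood test, 0 of either set reached an FDR under 0.05, or an unadjusted p under 0.05. With limma-voom or DESeq2, 0 did so by FDR. The 5 KRT19 pseudogenes held at most 1 count per library, against at least 127 counts for KRT19.

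The basal keratins were absent or near the floor in both lines. KRT5 had 0 counts in all 6 libraries, so the floor of 0.174 to 0.216 CPM was the approximate upper limit of its level in each library. KRT14, its usual type I partner, had 0 counts in 5 libraries and 2 counts in resistant library 1. KRT15, a type I keratin of basal cells and of the hair follicle bulge, had 7, 3 and 0 counts in parental libraries and 9, 17 and 4 counts in resistant libraries. The KRT15 groups overlapped, since resistant library 3 lay between the parental libraries. KRT15 did not pass the filter, and in a fit without the filter its log2 fold change was 1.60 (SE 0.63) with an FDR of 0.063. Its summed counts were 10 in parental and 30 in resistant libraries, a ratio of 3.03 after scaling for library size, with an exact 95% interval of 1.44 to 6.94 that covers counting error only and not the spread between libraries. KRT5 and KRT14 had too few counts for any statement on a change.

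Outside the luminal and basal sets, KRT10, KRT7 and KRT80 were measurable. KRT10, a type I keratin of suprabasal epidermis, measured 10.3, 11.7 and 10.3 CPM in parental libraries and 11.6, 11.1 and 13.9 CPM in resistant libraries. The groups overlapped, and the log2 fold change of KRT10 was 0.18 (95% confidence interval -0.05 to 0.41, FDR 0.234 in edgeR's test). KRT1, the epidermal type II partner of KRT10, had 0 counts in all libraries. TMEM99, on the opposite strand across most of KRT10, held between 15 and 30 counts per library, against at least 143 for KRT10. KRT7, a type II keratin of ductal and glandular epithelium, had 24 to 28 counts in every library of either group. Its log2 fold change was 0.08 with a 95% confidence interval from -0.499 to 0.67, so changes of up to about that size could not be seen at this depth.

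KRT80, a type II keratin found in many epithelia, was the weakest tested member in parental cells and the other keratin called. It measured 1.22, 0.715 and 1.01 CPM in parental libraries and 1.75, 2.52 and 2.28 CPM in resistant libraries, from 21, 12 and 14 counts and 29, 37 and 37 counts. Each resistant library exceeded each parental one, as for 22.1% of all genes tested, with parental library 1 closest to resistant library 1. The log2 fold change of KRT80 was 1.14 (SE 0.32, FDR 0.00367 by edgeR's test). Without parental library 2 it was 0.95, under the fold change required for a call, and glmTreat, which tests against an absolute log2 fold change of 1, did not call it (FDR 1).

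**Figure D2:**
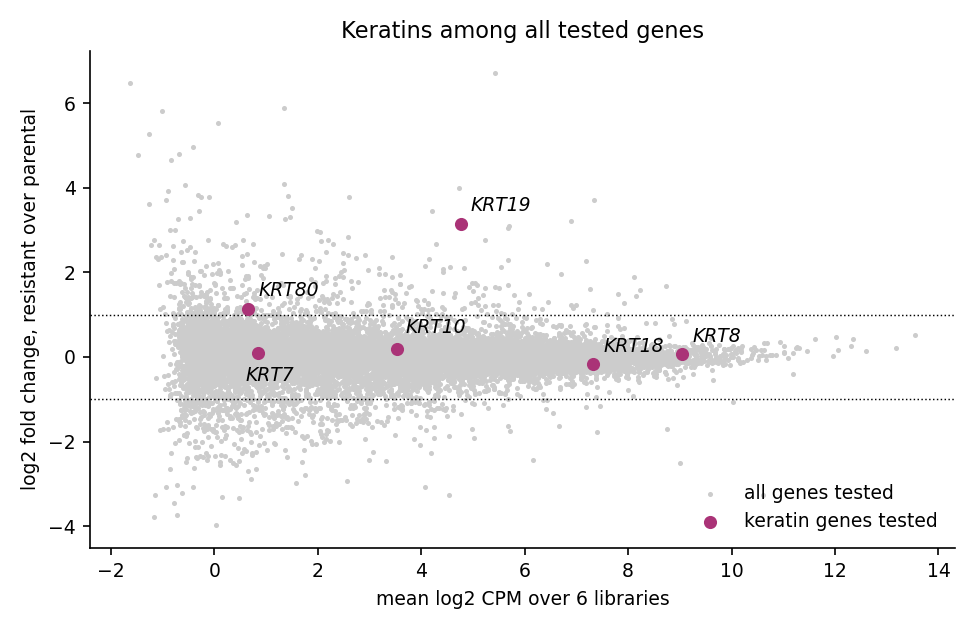
Log2 fold change of resistant over parental cells against mean log2 CPM for all 17142 tested genes (gray points) and the 6 tested keratins (purple), with dotted lines at log2 fold changes of 1 and -1. KRT19 at 3.15 and KRT80 at 1.14 lay above the upper line, and KRT8, KRT18, KRT10 and KRT7 lay between 0.18 and -0.18.

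The remaining stratified, hair and root sheath keratins were close to silent. Of the 19 genes of stratified epithelium on the list, 14 had 0 counts in all libraries, and of the 17 hair and nail keratins 13 had none. All 9 keratins of the inner root sheath had 0 counts. KRT20 and KRT23, simple-epithelium keratins of other organs, were also at 0. The injury and activation keratins showed no more than traces, with 1 and 2 counts of KRT16 in resistant libraries 1 and 3, 1 count of KRT6A in resistant library 1 and 0 counts of KRT17. KRT86, a hair keratin that overlaps KRT7 on the same strand, had 1, 4 and 0 counts in parental libraries and 1 count in each resistant library. The table also lists 112 genes of keratin-associated proteins, which cross-link hair keratins. Of these, 9 had a count, 2 were tested and 0 reached an FDR or an unadjusted p under 0.05 by edgeR's quasi-likelihood test, with 0 by FDR in limma-voom and DESeq2.

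Per kilobase of gene length, which permits levels of different genes to be compared, the order of the keratins differed between the lines in the place of KRT19. In parental cells KRT8 stood at 74.6 ± 0.74 FPKM (SD, n = 3), KRT18 at 53.1 ± 1.62, KRT10 at 5.02 ± 0.39, KRT19 at 3.86 ± 0.078, KRT7 at 0.395 ± 0.036 and KRT80 at 0.225 ± 0.058. The parental libraries of neighboring genes in this order did not overlap. In resistant cells KRT8 stood at 78.2 ± 1.38 FPKM (SD, n = 3), KRT18 at 47.0 ± 0.28, KRT19 at 34.3 ± 1.97, KRT10 at 5.69 ± 0.68, KRT80 at 0.502 ± 0.090 and KRT7 at 0.418 ± 0.042. There KRT80 and KRT7 overlapped, and the other neighbors did not. The gene lengths of the table enter these levels and may differ from the transcripts that the cells used.

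The make-up of keratin mRNA differed between the lines mainly in KRT19. Its share of the summed keratin FPKM was 2.81% ± 0.067 (SD, n = 3) in parental cells and 20.6% ± 1.04 (SD, n = 3) in resistant cells. The share of KRT8 went from 54.4% ± 0.64 to 47.0% ± 0.71, and that of KRT18 from 38.6% ± 0.89 to 28.3% ± 0.33 (SD, n = 3 each). Among type I keratins alone, KRT19 held 6.23% ± 0.14 in parental cells and 39.3% ± 1.60 in resistant cells (SD, n = 3 each). The KRT18 to KRT19 ratio of FPKM went from 13.7 ± 0.34 to 1.37 ± 0.076 (SD, n = 3 each). For each of these measures the groups did not overlap (p = 0.1 for all 5 in two-sided exact permutation tests, again the lowest possible). All 5 depend on the gene lengths of the table, and shares of counts would differ. In CPM, KRT19 averaged 9.02 in parental and 80.1 in resistant cells, beside 514 and 538 for KRT8.

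**Figure D3:**
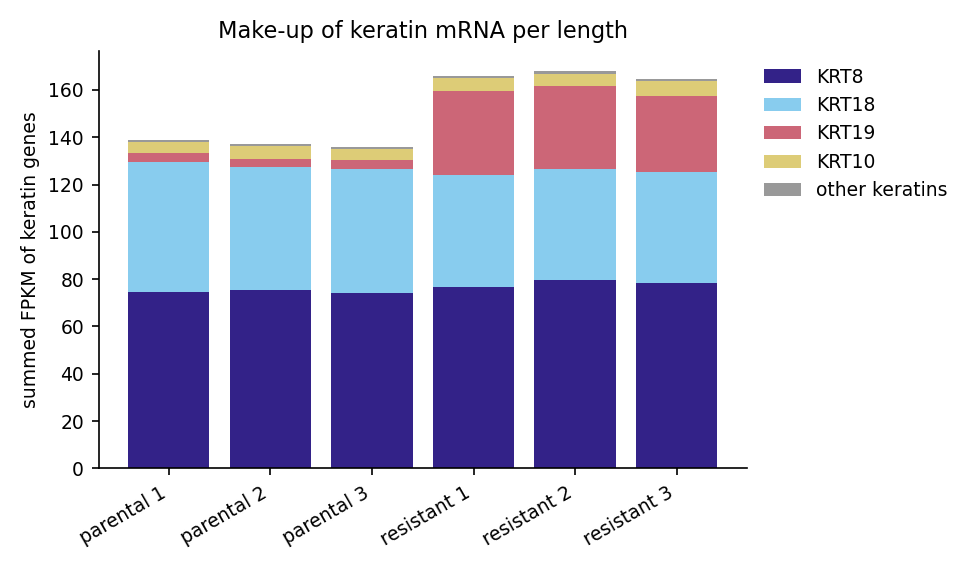
Summed FPKM of all keratin genes in each of the 6 libraries, stacked by gene, with the 51 genes other than KRT8, KRT18, KRT19 and KRT10 as 1 gray segment. The bars of the resistant libraries reached 165 to 168 FPKM and those of the parental libraries 136 to 139 FPKM, and the KRT19 segment grew from about 3.86 to about 34.3 FPKM.

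Summed over all members, keratin mRNA was 139, 137 and 136 FPKM in parental libraries 1, 2 and 3 and 166, 168 and 165 FPKM in resistant libraries 1, 2 and 3, which made resistant cells 1.21-fold higher (p = 0.1, two-sided exact permutation test). Without KRT19, an exclusion chosen after its values were seen, resistant cells stood at 0.989 times the parental sum (exact permutation test, p = 0.4). Both type sums lay higher in resistant libraries, that of type I by more. Type I keratins summed to 62.0 ± 1.44 FPKM in parental and 87.1 ± 1.55 FPKM in resistant cells, and type II keratins to 75.3 ± 0.76 and 79.2 ± 1.49 FPKM (SD, n = 3 each). The ratio of type II to type I FPKM was 1.18, 1.25 and 1.22 in parental libraries and 0.878, 0.920 and 0.929 in resistant libraries. By FPKM, type II thus exceeded type I in every parental library and lay under it in every resistant library. This crossing rests on the gene lengths of the table (6881 bases for KRT8, 3218 for KRT18 and 2336 for KRT19). In CPM, KRT8 alone, at 538 in resistant cells, exceeded KRT18 (151), KRT19 (80.1) and KRT10 (12.2) together. Resistant cells had 0.748 times the parental ratio by FPKM and 0.820 times by CPM (p = 0.1 for both, two-sided exact permutation tests). Without KRT19 the ratio turned, to 1.16 times the parental value (exact permutation test, p = 0.1). Without KRT8 and KRT18, resistant cells had 4.29 times the parental sum and 0.320 times the parental ratio (p = 0.1 for both, two-sided exact permutation tests).

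None of the tested genes around KRT19 was called. Within 500 kb of the middle of KRT19, the table lists 80 other genes, among them 15 keratin genes and 36 genes of keratin-associated proteins. None of these 15 keratins could be tested. The 55 genes at lower coordinates, of which 47 were keratin or keratin-associated protein genes, had at most 17 counts in any library, the highest being KRT15, which is the next protein-coding gene to KRT19 on that side. On the other side, 13 genes were tested, and 0 were called in either direction by edgeR's quasi-likelihood test, limma-voom or DESeq2. At an unadjusted p under 0.05, 3 were higher and 3 lower in edgeR's test. At an FDR under 0.05, 2 of the 13 were higher and 2 lower, against 17.1% and 18.4% of all genes tested. Log2 fold changes of all 13 lay between -0.25 and 0.13. One of them was JUP, which encodes the desmosomal protein plakoglobin, at 0.00 (FDR 0.94). Within 500 kb of KRT8, 15 other genes were tested, KRT18 included, and 0 were called by any of these 3 tools. In edgeR's test, 1 was higher and 5 lower at an unadjusted p under 0.05. At an FDR under 0.05, 1 was higher and 4 lower. Of all genes tested, 5.37% were called, and the share at an unadjusted p under 0.05 is not given here.

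**Figure D4:**
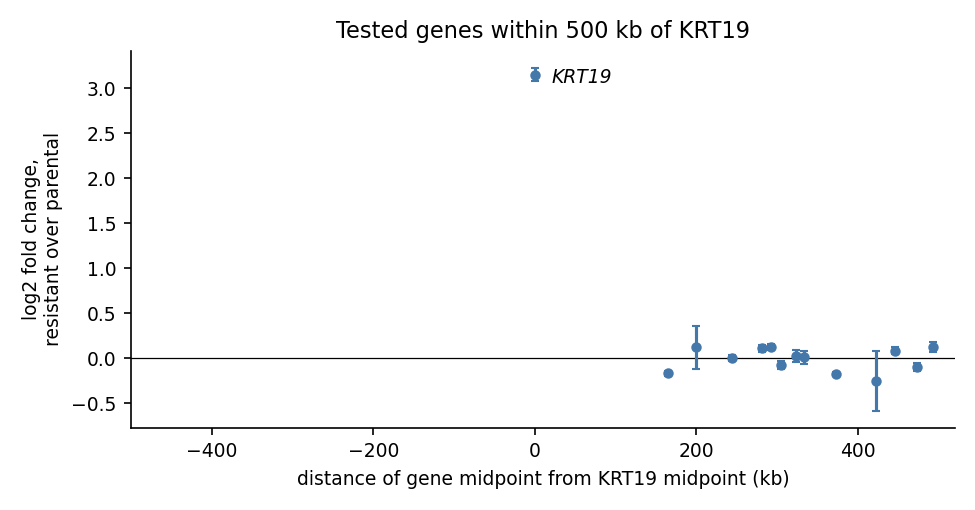
Log2 fold change of resistant over parental cells, with SE as error bars, for KRT19 and the 13 other tested genes within 500 kb, by distance in kb between gene midpoints. KRT19 lay at 3.15 and its neighbors between -0.25 and 0.13, and no gene on the side of lower coordinates had enough counts to be tested.

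Desmosomes and plakins anchor keratin filaments to the cell membrane. Of the 19 genes on this list, 14 were tested, of which 3 were higher and 6 lower at an FDR under 0.05 and 0 were called. Their median log2 fold change was -0.07, beside 0.00 over all genes tested. Of all genes tested, 17.1% were higher and 18.4% lower at that FDR, and 5.37% were called. PLEC, which encodes the cross-linker plectin, measured 234, 246 and 254 CPM in parental libraries and 332, 336 and 344 CPM in resistant libraries, a log2 fold change of 0.46 (SE 0.031, FDR 6.16e-16 in edgeR's test). Lower in resistant cells were PKP1 (plakophilin 1, log2 fold change -0.67), PPL (periplakin, -0.65) and EVPL (envoplakin, -0.58), with FDR from 8.65e-09 for EVPL to 6.51e-04 for PPL in edgeR's test. DSP, the plakin desmoplakin that holds keratins at desmosomes, fell by 0.22 on the log2 scale (FDR 2.13e-06). The desmosomal cadherins of stratified epithelium DSG4 and DSC3 were at 0 counts in all libraries.

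The other intermediate filament genes held larger changes than the linkers. Of 15 genes on the list, 11 were tested, 3 were higher and 4 lower at an FDR under 0.05, and 2 were called, both higher. Their median log2 fold change was -0.04. Of all genes tested, 17.1% were higher and 18.4% lower at that FDR, and 2.53% were called higher. VIM encodes vimentin, the intermediate filament protein of mesenchymal cells. VIM measured 17.8, 17.3 and 18.5 CPM in parental libraries and 61.8, 60.7 and 58.1 CPM in resistant libraries. These groups did not overlap, and 22.1% of all genes tested likewise lay wholly above in resistant libraries. The log2 fold change of VIM was 1.76 (SE 0.067, FDR 2.32e-24 in edgeR's test). NEFL, the neurofilament light chain, had 3, 5 and 0 counts in parental libraries and 46, 31 and 40 counts in resistant libraries. The ratio of its summed counts, scaled for library size, was 14.7 with an exact 95% interval of 7.24 to 35.0 that covers counting error only, and its FDR in edgeR's test was 5.62e-09. NEFH, the neurofilament heavy chain, measured 39.8 ± 3.20 CPM (SD, n = 3) in parental and 68.6 ± 1.98 CPM (SD, n = 3) in resistant cells, a log2 fold change of 0.79. The 4 lower genes were NES (nestin, log2 fold change -0.41, from 101 to 76.2 CPM, FDR 3.86e-10 in edgeR's test), SYNM (synemin, -0.24), and the lamins LMNB1 (-0.26) and LMNB2 (-0.19), which line the nucleus. By length, VIM stood at 11.7 FPKM in resistant cells, under KRT19 at 34.3 FPKM.

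Both lines expressed luminal markers and lacked the defining basal ones. Of the 11 prostate luminal markers in the table, keratins aside, 10 were tested. At an FDR under 0.05, 6 were higher and 3 lower, against 17.1% and 18.4% of all genes tested. Of the 10, 0 were called, against 5.37% of all genes tested. The summed level of the luminal markers was 3288 to 3420 CPM in parental libraries and 3470 to 3545 CPM in resistant libraries, with only MSMB at 0 throughout. The widest changes were those of the protease genes KLK3 (log2 fold change 0.91), TMPRSS2 (0.79) and KLK2 (0.70), and KLK3 stayed at 2.67 CPM in parental and 4.96 CPM in resistant cells. The 3 lower markers were ACPP (-0.49, FDR 0.035), HOXB13 (-0.48, FDR 2.29e-17) and FOXA1 (-0.17, FDR 4.32e-06) by edgeR's test. HOXB13 went from 439 to 315 CPM. Of the 10 basal markers, 5 were tested. At an FDR under 0.05, 2 were higher and 1 lower, against 17.1% and 18.4% of all genes tested. TP63, the transcription factor that defines basal cells, had 1, 5 and 1 counts in parental libraries and 0, 3 and 0 in resistant libraries. The summed basal level of 105 to 116 CPM in parental and 128 to 135 CPM in resistant libraries came mostly from CDH3, at 74.9 and 89.9 CPM. BCAM, a laminin-binding cell adhesion molecule, rose by the widest margin on the list, to 32.3 CPM in resistant cells (log2 fold change 0.92, FDR 3.82e-13 in edgeR's test), short of a call. ITGA6, an integrin subunit of hemidesmosomes, was the basal marker called, and it fell by 1.47 on the log2 scale (FDR 6.82e-12), from 11.8 to 4.25 CPM.

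Markers of other cell types were given for the same libraries. Of all genes tested, 17.1% were higher and 18.4% lower at an FDR under 0.05, and 5.37% were called. Of the 10 cornified envelope genes in the table, 6 were at 0 in all libraries, including IVL (involucrin), and 3 were tested, with 1 higher at an FDR under 0.05 (FLG, filaggrin, log2 fold change 0.20). Their summed level was 37.8 to 42.6 CPM in parental and 43.1 to 46.9 CPM in resistant libraries. Of the 10 mesenchymal markers, 6 were tested, with 0 higher and 2 lower at an FDR under 0.05 by edgeR's test (FN1 and COL1A1, log2 fold changes -0.62 and -0.28). At an unadjusted p under 0.05, 0 were higher and 3 lower, and limma-voom and DESeq2 also found 0 higher by FDR. The summed mesenchymal level was 55.0 to 66.6 CPM in parental and 48.7 to 51.4 CPM in resistant libraries. VIM was listed with the other intermediate filaments and is not part of these counts or of this sum. It was called higher, from 17.8 to 60.2 CPM (log2 fold change 1.76, FDR 2.32e-24 in edgeR's test). ZEB2, a transcription factor of mesenchymal cells that was too weak to be tested, had 0 to 2 counts per parental library and 4 to 13 counts per resistant library. Of the 8 neuroendocrine markers, 4 were tested, with 2 higher and 1 lower at an FDR under 0.05, and CHGA, which encodes the secretory granule protein chromogranin A, was called lower at -2.26. The 2 that were higher were CHGB, which encodes the related chromogranin B, at a log2 fold change of 0.65 (FDR 6.59e-10 in edgeR's test, from 24.2 to 37.9 CPM), and ENO2, a neuronal enolase, at 0.09 (FDR 0.0448). The summed neuroendocrine level was 316 to 323 CPM in parental and 307 to 319 CPM in resistant libraries. The part of other cell types in the keratin values was not tested.

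Among 14 listed regulators of epithelial genes, mostly transcription factors, 11 were tested. Of the 11, 0 were called, against 5.37% of all genes tested. At an FDR under 0.05, 1 was higher and 3 lower, against 17.1% and 18.4% of all genes tested. ELF3, an ETS factor of epithelia, was the one that was higher, at 26.9 ± 0.48 CPM (SD, n = 3) in parental and 35.5 ± 0.72 CPM (SD, n = 3) in resistant cells (log2 fold change 0.40, FDR 8.17e-06 in edgeR's test). KLF4, a zinc finger factor of differentiating epithelium, was lower at -0.27 (FDR 0.00221), as were EHF (-0.18) and ESRP1 (-0.11). ESRP1 and the listed ESRP2 are splicing factors of epithelial cells rather than DNA-binding factors. The summed level of the list was 657 to 671 CPM in parental and 645 to 658 CPM in resistant libraries.

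**Figure D5:**
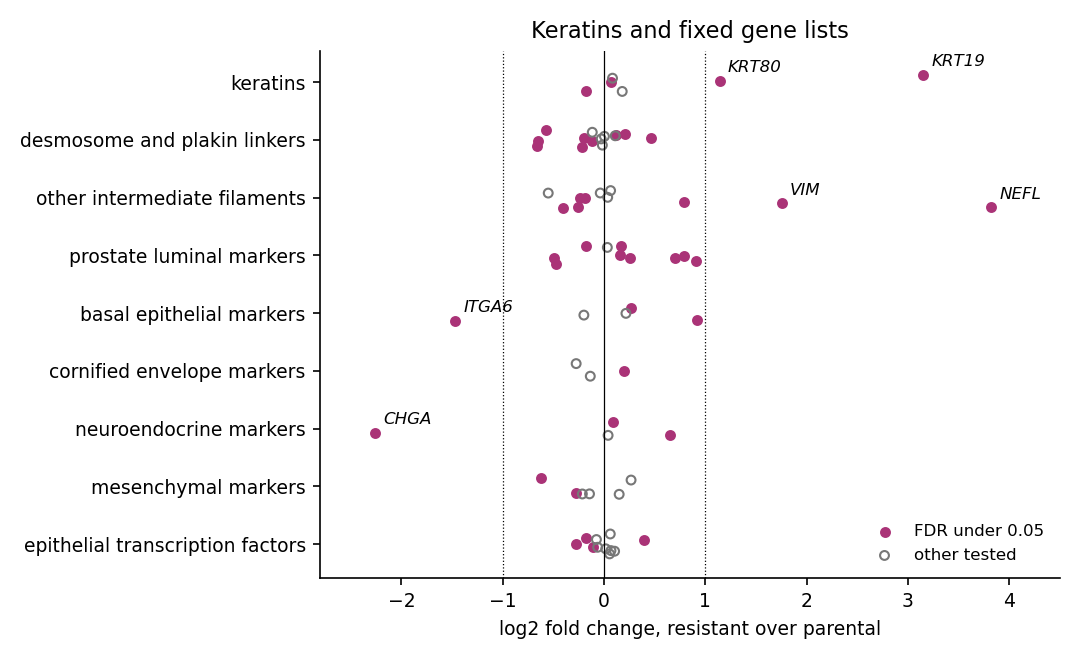
Log2 fold change of resistant over parental cells for the tested genes of the keratins and of 8 gene lists, filled where the FDR was less than 0.05, with dotted lines at 1 and -1; vertical position within a list carries no value. KRT19, KRT80, VIM and NEFL lay above 1 and ITGA6 and CHGA under -1, and all other points lay between the lines.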

How the data were processed

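RNA-Seq covered 3 parental and 3 resistant libraries, grouped by the sample titles. The authors mapped reads to hg38 with HISAT2 (2.0.5), counted them per gene with featureCounts (1.5.0-p3) and deposited raw counts. fastp is also named in the submitters' processing notes. The annotation release and the strand setting of counting are not given in the sources used here. Gene length in bases, another quantity in the deposited table, was used for FPKM. No per-sample column was left unused (0 columns). No human genome or promoter sequence was used here.

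From the counts, genes were filtered with filterByExpr, scaled with TMM and compared by the quasi-likelihood test of edgeR 4.0.16 (R 4.3.3). P-values were adjusted over 17142 genes by the Benjamini-Hochberg method. The study's methods name limma, which was run as an alternative (3.58.1), as was DESeq2 (1.42.0). SE is the absolute log2 fold change divided by the square root of F. Intervals of fold changes use the t distribution of that fit. Sums and ratios per library were compared by exact permutation tests. Every keratin that passed the filter and the 6 luminal and basal keratins were named. From the other lists, the genes called or up to 3 with the widest change at FDR under 0.05 were named. Also named, chosen after their values were seen, were PLEC, DSP, JUP, NEFH, NES, SYNM, LMNB1, LMNB2, HOXB13, FOXA1, ACPP, TP63, CDH3, BCAM, CHGB, ENO2, ZEB2, ESRP1, ESRP2 and genes at 0. Other list members are given by counts only. The members and lists were chosen with earlier results of these data known. The neighbor comparison and the ratios of single keratins were added after the values were seen.

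In pairs of libraries the chi-square per degree of freedom was 1.75 to 2.38 within groups and 18.4 to 21.3 across groups. All 6 libraries were counted separately. These values cannot show whether the libraries of a group came from separate cultures. On simulated counts of 16843 genes, with 200 shifted by 2 on the log2 scale, edgeR recovered 200 with 4 false calls, and the other methods tested recovered 180 to 200. Only genes of higher expected count were shifted. Recovery of weak genes with smaller changes, such as KRT80 (12 to 37 counts, log2 fold change 1.14), was therefore not simulated.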

Additional observations from a re-analysis of the deposited data

How the results depend on the processing

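Of 172 values recomputed under the alternatives, 156 were classed as the same, and the causes of the other changes were not tested. For fold changes, this meant the same direction and the same side of the FDR threshold. The fold change required for a call was not used, so KRT80 at 0.29 and at 0.95 counted as the same. A fall from 3 to 2 keratins higher at an FDR under 0.05 also counted as the same. The number of keratins called higher, 2, was 1 with limma on log2(FPKM + 1) and 1 with glmTreat, which left KRT19 alone, and was 1 to 2 in the 6 fits without one library. The number called lower was 0 under every alternative run. The log2 fold change of KRT19 lay between 2.86 and 3.20 and that of KRT80 between 0.29 and 1.34, both lowest with limma on log2(FPKM + 1). KRT18 lost significance only with glmTreat, and KRT8 in 4 of the 9 alternatives without a left-out library and in 5 of the 6 fits that left one out. The fold of the summed keratin level, 1.21, was 0.989 without KRT19, and that of the type II to type I ratio, 0.748, was 1.16 without KRT19, an alternative chosen after the values were seen. Without KRT8 and KRT18, these folds were 4.29 and 0.320. With CPM in place of FPKM, they were 1.11 and 0.820. Without one library in turn, they lay between 1.20 and 1.22 and between 0.737 and 0.761. The 3 same-numbered pairs of libraries had correlations of their deviations of -0.0081, -0.020 and -0.016, so the numbers did not pair the samples. With the replicate number as a block, 2 keratins were called higher, KRT19 had a log2 fold change of 3.15 and the folds of the sum and of the ratio were 1.21 and 0.748. Depth limits KRT7, KRT80 and KRT15, and leaves the 39 keratins without counts undetectable.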
